A study of Mus musculus with 96 samples.

Results

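The genes described here are 9 stress-response genes of the mouse, chosen by symbol because their level in *Scx*-/- tissues was compared with that in wild-type tissues. *Cirbp* and *Rbm3* encode RNA-binding proteins that are induced by mild cooling. *Hspa1a*, *Hspa1b* and *Hspa8* encode cytosolic HSP70 chaperones, *Hsph1* encodes the HSP110 chaperone that exchanges nucleotide on HSP70, *Dnajb1* encodes an HSP40 that hands substrates to HSP70, *Hsp90aa1* encodes the inducible HSP90, and *Hspb1* encodes a small heat shock protein. They are 9 of the 41575 gene symbols in the count table. A total of 7 of the 9 had at least 1 count, as did 22493 symbols in all.

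Heat, unfolded protein and many other stresses free the transcription factor HSF1, which binds heat shock elements and switches on the chaperone genes, while mild cooling raises *Cirbp* and *Rbm3*. *Hspa8* differs from its inducible relatives in being expressed in all cells at all times. *Hspb1* is known for its abundance in smooth, cardiac and skeletal muscle, *Hsph1* for its abundance in brain, and *Cirbp* also for following the daily cycle of body temperature.

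RNA of 16 tissues was measured in wild-type mice and in mice without *Scx*, a transcription factor of tendon and other connective tissue progenitors, at 3 weeks of age. Each tissue and genotype had 3 replicates, which gave 96 libraries of the MuSeq method, in which samples are barcoded at reverse transcription and pooled. The authors describe the method as enriched for the 3′ ends of RNA. The tissues were cortex and hippocampus of the brain, heart, vascular, muscle, bone and cartilage, stomach, intestine and rectum, liver, spleen, kidney and bladder, lung and adipose, frozen in liquid nitrogen when removed. The sources used here do not state the strain, the sex, the allele of *Scx* or the mouse behind each library. The *p*-values therefore cover the variation among these libraries, which may in part be technical. In bulk tissue, fewer cells of a type and less RNA per cell cannot be told apart.

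Library totals ranged from 11244 to 1658192 counts (median 251640), and 16 of the 96 libraries held fewer than 100000. Levels are given as CPM, the count scaled to a common library total. *Scx* itself was counted in 12 of 48 wild-type libraries and in 1 of 48 *Scx*-/- libraries. That library, labelled *Scx*-/- cartilage replicate 1, held 9 counts, against 0, 7 and 1 in the wild-type cartilage libraries, so cartilage values of *Cirbp*, *Hsph1*, *Hsp90aa1* and *Hspa8* are also given without replicate 1 of both genotypes. Markers of the labelled tissue had their highest or second highest median in that tissue in 15 of 16 tissues. The exception was adipose, where 7 adipocyte genes summed to 15 to 368 CPM with *Lep* at 0, and 9 pancreatic acinar genes to 386904.9 to 510237.0 CPM. These are called the adipose-labelled libraries. Other lists were also abundant in labelled tissues: the vascular libraries held the highest adipocyte sums, at 10127.3 to 15739.3 CPM, and 3767.0 to 14221.5 CPM of brown fat genes, beside 14284.3 to 35909.6 CPM of vessel wall genes. The authors took brown fat terms in their vascular samples as a sign of contamination and left them out of later comparisons. They are kept here under their label.

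The sequences that matter for reading the measurements are the windows upstream of *Cirbp*, *Hsph1* and *Hspb1*, whose levels the results turn on. Beside them are the window of *Hspa1a*, the classical heat-inducible member that had no counts, and a stretch of *Hspa8* with some of its differences from its copy. Of the 9 members, 6 had an entry in the RefSeq promoter table (GRCm38.p6). In the 250 bases before each annotated start, 3 motifs were searched on both strands without regard to overlap, TTCNNGAA and GAANNTTC, the 2-unit forms of the heat shock element, and TCCCCGCC, the mild-cold responsive element. They were present in 7.17%, 6.69% and 4.64% of 32851 windows of the same length. Motif letters are in capitals in the following windows, which are written 5′ to 3′ on the strand of the gene.
Cirbp, chr10:80167589-80167838, plus strand: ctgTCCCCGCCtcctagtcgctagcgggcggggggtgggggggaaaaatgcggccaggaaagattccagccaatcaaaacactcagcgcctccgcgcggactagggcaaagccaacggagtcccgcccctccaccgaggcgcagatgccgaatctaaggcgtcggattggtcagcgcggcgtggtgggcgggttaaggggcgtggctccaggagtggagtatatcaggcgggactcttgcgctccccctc
Hsph1, chr5:149636337-149636586, minus strand: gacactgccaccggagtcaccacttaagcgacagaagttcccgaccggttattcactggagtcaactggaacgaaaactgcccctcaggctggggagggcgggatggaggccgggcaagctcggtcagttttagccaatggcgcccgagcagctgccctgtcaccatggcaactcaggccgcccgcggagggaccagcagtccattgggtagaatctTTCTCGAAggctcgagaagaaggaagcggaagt
Hspb1, chr5:135887669-135887918, plus strand: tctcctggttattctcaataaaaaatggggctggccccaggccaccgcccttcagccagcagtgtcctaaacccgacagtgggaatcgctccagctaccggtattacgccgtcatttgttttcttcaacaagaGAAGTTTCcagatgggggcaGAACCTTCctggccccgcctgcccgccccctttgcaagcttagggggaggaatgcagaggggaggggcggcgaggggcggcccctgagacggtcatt
Hspa1a, chr17:34972157-34972406, minus strand: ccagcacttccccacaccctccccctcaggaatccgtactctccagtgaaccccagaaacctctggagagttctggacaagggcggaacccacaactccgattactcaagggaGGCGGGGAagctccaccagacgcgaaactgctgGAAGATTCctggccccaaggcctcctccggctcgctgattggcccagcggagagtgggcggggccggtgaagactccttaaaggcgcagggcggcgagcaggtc
*Cirbp* held the cold element at -247 from its first start and neither heat shock motif. *Hsph1* held TTCNNGAA at -33, and *Hspb1* held 2 copies of GAANNTTC. *Hspa1a* held GAANNTTC at -104 and the cold element at -137. *Hspa1b* held both at the same places, its window differing from that of *Hspa1a* at 3 of 250 bases. The 2 windows of *Dnajb1* held none of these letters. A match is a description of the letters, not a binding site, and no match says nothing about the factor.

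*Hspa8*, on chromosome 9 (40800984 to 40810087, plus strand), has a processed pseudogene, *Gm15459*, on chromosome 5 (5781615 to 5783555, minus strand). In the GENCODE M21 annotation of GRCm38, the build that the files use under its name mm10, the intronless copy differed from the coding sequence at 5 of 1941 bases (99.7% identity). Counted from the first base of the coding sequence, the differences were G114A, C414T, C549T, G1222A and C1440T, and the last 501 bases were identical. Where the reads fell along the gene and its copy was not tested. The window from base 1201 to base 1460 is shown for both, with the differing bases in capitals.
Hspa8: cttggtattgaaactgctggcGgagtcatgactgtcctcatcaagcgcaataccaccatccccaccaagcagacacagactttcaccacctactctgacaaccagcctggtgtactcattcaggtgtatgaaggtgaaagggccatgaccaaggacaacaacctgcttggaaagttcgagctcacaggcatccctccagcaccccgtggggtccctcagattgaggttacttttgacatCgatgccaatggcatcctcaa
Gm15459: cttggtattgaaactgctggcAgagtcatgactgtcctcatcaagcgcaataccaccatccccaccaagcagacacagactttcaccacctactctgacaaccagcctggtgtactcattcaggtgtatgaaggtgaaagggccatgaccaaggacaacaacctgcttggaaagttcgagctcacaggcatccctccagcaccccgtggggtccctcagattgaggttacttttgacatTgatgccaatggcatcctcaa

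*Hspa1a* and *Hspa1b*, the stress-inducible HSP70 genes, lie beside each other on chromosome 17 (34969190 to 34972156 and 34956436 to 34959238, both minus strand). Both were at 0 in all 96 libraries. Zero counts in a library allow up to 3 counts, which is 1.81 CPM in the deepest library and 267 CPM in the shallowest. Of the 50-base stretches of *Hspa1b* transcripts, 62.3% are also found in *Hspa1a*, and whether reads matching both genes were counted was not tested. No level, tissue difference or genotype difference can therefore be given for these genes.

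The first question was how the members differed between *Scx*-/- and wild-type mice in each tissue. The members were chosen from this contrast, so their values are a description without a test, and a difference is called larger than the spread between replicates where the 3 libraries of one genotype all lay above those of the other. Among the 105 member and tissue pairs with at least 10 counts in the 6 libraries, *Scx*-/- was higher without overlap in 9 (8.57%) and lower without overlap in 9 (8.57%). Over all genes with at least 10 counts these shares were 5.38% higher and 5.08% lower. The 9 higher pairs were *Cirbp* in 7 tissues and *Dnajb1* in 2, and the 9 lower pairs were *Hsph1* in 7 tissues and *Hsp90aa1* in 2. The shares over all genes differed by tissue. Lower genes made up 12.8% in intestine, 8.73% in kidney and 8.25% in spleen, which hold both *Hsp90aa1* pairs and part of the *Hsph1* pairs. In the other *Hsph1* tissues this share was 2.81% (muscle) to 4.75% (liver). Higher genes made up 4.17% (kidney) to 7.64% (muscle) in the *Cirbp* tissues, 6.20% in stomach and 11.1% in adipose. When counts of 0 were set to the 3 counts that a 0 allows, 16 of these 18 pairs stayed apart in the same direction, the exceptions being *Cirbp* in heart and *Dnajb1* in the adipose-labelled libraries. This step changes zeros alone. Values resting on 1 or 2 counts, as for *Cirbp* in lung and *Hsph1* in muscle, were left as counted.

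**Figure D1:**
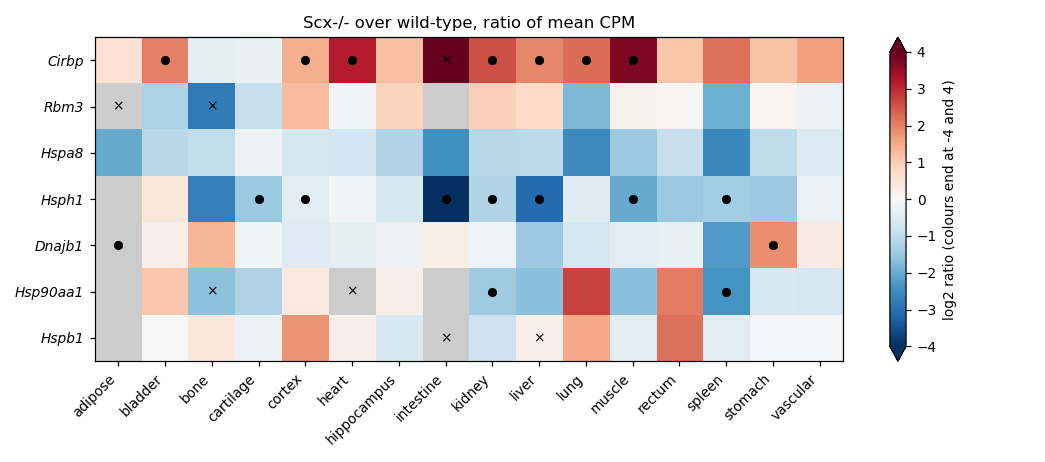
Log2 ratio of mean CPM, *Scx*-/- over wild-type (n = 3 each), for the 7 measured members (rows) in 16 tissues (columns). Dots mark pairs whose libraries did not overlap, crosses mark pairs under 10 counts, and grey marks pairs with a group at 0; *Cirbp* was above 0 in 14 tissues and *Hsph1* below 0 in 14.

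*Cirbp*, on chromosome 10 (80165985 to 80172786, plus strand), held 2416 counts in the *Scx*-/- libraries and 695 in the wild-type libraries. In muscle, the wild-type libraries measured 0, 9.18 and 19.0 CPM and the *Scx*-/- libraries 127, 140 and 107 CPM, so that the group means differed 13.3-fold (log2 3.73). In heart, wild-type values of 25.0, 0 and 56.8 CPM stood below *Scx*-/- values of 105, 338 and 286 CPM, an 8.90-fold ratio (log2 3.15). The measured values did not overlap in either tissue, but the library at 0 was shallow in both. In heart it held 11244 counts in all, so that its 0 allows up to 267 CPM, and with that value the groups overlapped. In muscle it held 30409 counts, which allow 98.7 CPM, still below the *Scx*-/- libraries but with a log2 ratio of 1.56. Leaving out 1 library moved the log2 ratio between 3.15 and 4.76 in muscle and between 2.57 and 4.28 in heart, the highest in each without wild-type replicate 3. In kidney, wild-type libraries held 28.6, 47.7 and 35.7 CPM and *Scx*-/- libraries 118, 304 and 243 CPM (5.94-fold). In lung, wild-type libraries held 55.6, 21.4 and 0 CPM and *Scx*-/- libraries 107, 132 and 121 CPM (4.68-fold). The genotypes did not overlap in either tissue, although the lung value of 21.4 CPM was a single count and the lung ratio ranged from log2 1.64 without wild-type replicate 3 to 3.49 without wild-type replicate 1.

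The remaining non-overlapping tissues were bladder, liver and cortex. Bladder libraries measured 69.7, 39.3 and 68.6 CPM in wild-type mice and 179, 247 and 292 CPM in *Scx*-/- mice (4.04-fold). Liver libraries measured 12.5, 0 and 21.2 CPM in wild-type mice and 26.0, 71.5 and 31.0 CPM in *Scx*-/- mice (3.82-fold). The gap in liver, between 21.2 and 26.0 CPM, was the narrowest of the 7, and its log2 ratio of 1.93 became 1.35 without wild-type replicate 2 or *Scx*-/- replicate 2 and 2.78 without wild-type replicate 3. Cortex, the tissue with most *Cirbp* counts (930), gave 72.4, 93.4 and 60 CPM in wild-type mice and 179, 177 and 255 CPM in *Scx*-/- mice (2.71-fold, log2 1.44). Over the 16 tissues the log2 ratio of *Cirbp* had a median of 1.79 and ranged from -0.35 in bone to 5.01 in intestine, where the 6 libraries held 9 counts.

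*Cirbp* overlapped between the genotypes in the other 9 tissues, and in 7 of these its mean was higher in *Scx*-/- mice. In spleen, one *Scx*-/- library lay at 4.27 CPM, below all wild-type libraries (42.8, 17.2 and 21.1 CPM), and the others at 102 and 270 CPM. In stomach, *Scx*-/- replicate 1 lay at 40 CPM, inside the wild-type range of 35.9 to 69.3 CPM, and the others at 148 and 166 CPM. Cartilage was one of the exceptions in direction, with 243, 0 and 0 CPM in wild-type libraries and 41.3, 4.87 and 152 CPM in *Scx*-/- libraries. The library labelled wild-type cartilage replicate 1 alone carried the wild-type counts, and without replicate 1 of both genotypes the measured *Scx*-/- values were higher without overlap in cartilage too. The wild-type libraries left were at 0, and *Scx*-/- replicate 2 held 1 count. That is fewer than the 3 counts that a 0 allows, so the genotypes could not be separated there at this depth.

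Across the 14 tissues other than bone and cartilage, the median *Cirbp* level of a replicate number was 26.9, 19.3 and 28.4 CPM in the wild-type libraries and 98.0, 141 and 159 CPM in the *Scx*-/- libraries. Every replicate number of one genotype therefore lay on the same side of every number of the other. Libraries of one number share features across tissues, as given for *Hspa8*, so the tissues are not independent repeats of the comparison, and a difference between genotypes cannot be told apart from one between the few mice sampled.

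**Figure D2:**
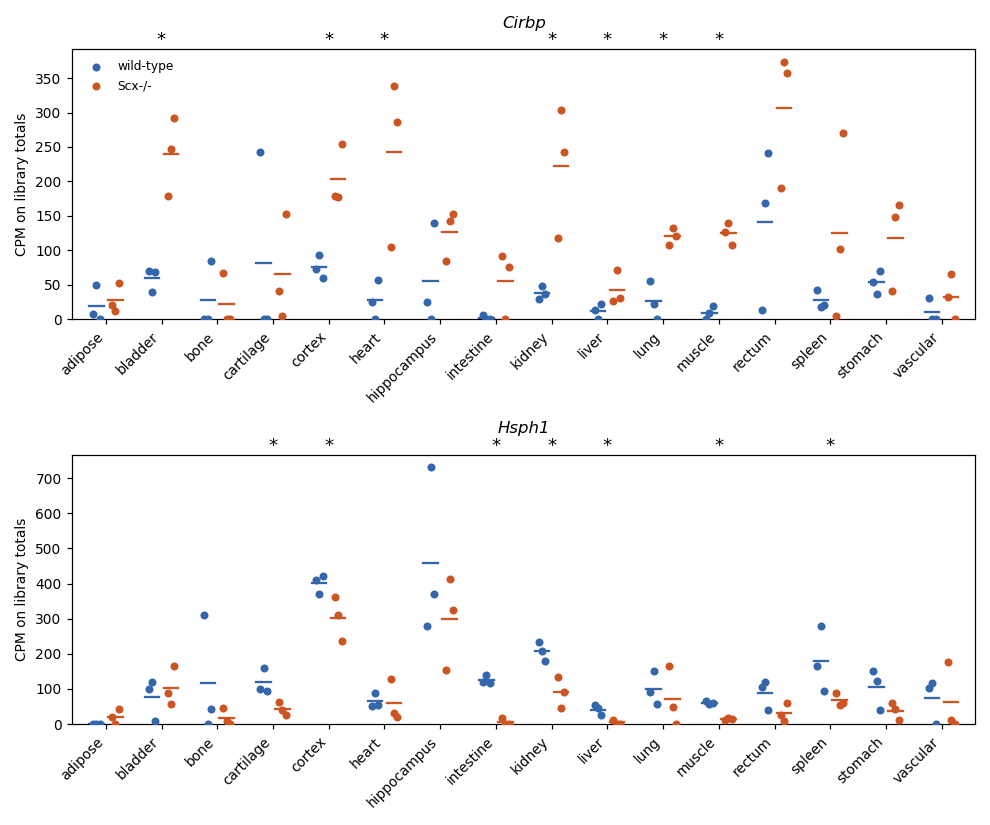
CPM of *Cirbp* (top) and *Hsph1* (bottom) in every library by tissue, wild-type in blue and *Scx*-/- in orange, with points for the 3 libraries and short lines for their mean. Asterisks mark the 7 tissues for each gene in which the genotypes did not overlap; in these the orange points lie above the blue ones for *Cirbp* and below them for *Hsph1*.

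*Hsph1*, on chromosome 5 (149614287 to 149636376, minus strand), was the member most often lower in *Scx*-/- mice among pairs without overlap, in 7 tissues. In muscle, the wild-type libraries measured 65.8, 57.4 and 61.2 CPM and the *Scx*-/- libraries 13.1, 18.1 and 13.9 CPM, 4.09-fold lower in the mean (log2 -2.03). In liver, wild-type values of 54.0, 44.8 and 24.7 CPM stood above *Scx*-/- values of 13, 1.70 and 0 CPM (log2 -3.07, and -5.60 without *Scx*-/- replicate 1). In intestine, wild-type values of 121, 141 and 117 CPM stood above *Scx*-/- values of 18.2, 0 and 0 CPM (log2 -4.38). The wild-type muscle value of 65.8 CPM was 2 counts in a library of 30409. The *Scx*-/- intestine libraries, of 26500 to 54955 counts, held 1 *Hsph1* count in all, and with their zeros at 3 counts the log2 ratio was -0.72.

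Kidney, spleen, cartilage and cortex had smaller differences of the same direction. Kidney libraries held 234, 209 and 179 CPM in wild-type mice and 134, 46.0 and 90.7 CPM in *Scx*-/- mice (log2 -1.20). Spleen libraries held 165, 279 and 94.9 CPM and, in *Scx*-/- mice, 89.8, 53.6 and 60.6 CPM (log2 -1.40). The spleen groups overlapped when the library sizes were scaled by TMM or RLE factors. Cartilage libraries held 101, 161 and 94.3 CPM in wild-type mice and 62.0, 39.0 and 25.4 CPM in *Scx*-/- mice, with a log2 ratio of -1.50 that was -1.99 without replicate 1 of both genotypes. Cortex libraries held 410, 370 and 422 CPM in wild-type mice and 361, 310 and 236 CPM in *Scx*-/- mice, a 1.33-fold difference whose groups overlapped with TMM factors. Over 16 tissues the ratio was below 0 in 14, with a median log2 of -1.40.

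*Hsph1* went the other way in bladder, at 100, 120 and 9.15 CPM in wild-type libraries and 89.7, 56.2 and 165 CPM in *Scx*-/- libraries (log2 0.44, overlapping). In the adipose-labelled libraries it was at 0 in all 3 wild-type libraries, of 100469 to 140132 counts, and at 20.5, 0 and 42.2 CPM in the *Scx*-/- libraries, of 333668 to 498158 counts. The replicate medians over 14 tissues were 105, 121 and 54.8 CPM in wild-type mice and 89.7, 37.2 and 31.9 CPM in *Scx*-/- mice. For *Hsph1* these medians interleave, since wild-type number 3 lies below *Scx*-/- number 1.

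The 4 tissues in which both genes met the criterion were cortex, kidney, liver and muscle, where *Cirbp* was higher and *Hsph1* lower in *Scx*-/- mice. Bladder, heart and lung had only the *Cirbp* difference, and cartilage, intestine and spleen only that of *Hsph1*. Whether the differences of the genes differ between these tissues was not tested. Within the groups of replicates, the levels of the pair had a correlation of 0.01 over 96 libraries.

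*Rbm3*, on the X chromosome (8138975 to 8145880, minus strand), the other cold-induced gene, showed no non-overlapping tissue among the 14 with at least 10 counts. Its 637 counts divided into 298 in wild-type and 339 in *Scx*-/- libraries. The log2 ratio was above 0 in 7 tissues and below 0 in 7, with a median of -0.03. Kidney held 9.85, 7.96 and 16.4 CPM in wild-type mice and 40.2, 21.5 and 4.12 CPM in *Scx*-/- mice, and muscle 65.8, 2.29 and 6.33 CPM and 26.1, 23.3 and 32.3 CPM. The *Scx*-/- muscle libraries held 22, 18 and 28 counts and the wild-type ones 2, 2 and 3, the first wild-type value of 65.8 CPM being 2 counts in a shallow library. At such counts the genotypes could not be separated.

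*Dnajb1*, on chromosome 8 (83608193 to 83612653, plus strand), had higher values without overlap in stomach and, on few counts, in the adipose-labelled libraries. Stomach libraries held 31.8, 17.9 and 16.5 CPM in wild-type mice and 57.1, 78.0 and 104 CPM in *Scx*-/- mice, 3.61-fold (log2 1.85). Several marker lists also did not overlap in stomach, and their part in the result was not tested. The pancreatic acinar genes had medians of 545 CPM in wild-type and 6063.1 CPM in *Scx*-/- libraries, with 4 of 9 genes higher. Among the other lists, adipocyte genes summed to 162 to 331 and 339 to 396 CPM (2 genes higher). Bone genes summed to 1044.0 to 1894.3 and 985 to 1025.7 CPM (1 gene lower). The adipose-labelled libraries held no *Dnajb1* count in wild-type mice and 6, 1 and 4 counts in the deeper *Scx*-/- libraries (13.7, 3.00 and 8.03 CPM). The wild-type zeros allow 21.4 to 29.9 CPM, so no difference was detectable there at this depth. Over 16 tissues the log2 ratio of *Dnajb1* was above 0 in 5 and below 0 in 10 (median -0.23).

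*Hsp90aa1*, on chromosome 12 (110690605 to 110702728, minus strand), was lower without overlap in kidney and spleen. Kidney libraries held 19.7, 23.9 and 22.3 CPM in wild-type mice and 15.6, 9.21 and 0 CPM in *Scx*-/- mice (log2 -1.41, 10 counts in *Scx*-/- mice). Spleen libraries held 66.4, 214 and 153 CPM in wild-type mice and 17.1, 0 and 66.1 CPM in *Scx*-/- mice (log2 -2.38). The nearest spleen libraries of the genotypes, at 66.4 and 66.1 CPM, were nearly level, and the groups overlapped with RLE factors. Leaving out 1 *Scx*-/- library moved the spleen ratio to log2 -4.08 (number 3) or -1.80 (number 2). In kidney the same step gave -2.25 (number 1) or -0.82 (number 3). In cartilage the groups overlapped with all 6 libraries (log2 -1.20) and were lower without overlap in *Scx*-/- mice without replicate 1 of both genotypes (log2 -1.27). Replicate 3 of both genotypes held 11 counts there, at 39.9 CPM, so the nearest libraries were level and differed only by their totals. Its processed pseudogene *Gm12346* held 2732 counts and *Hsp90aa1* itself 1059, and 75.4% of the 50-base stretches of the copy are also in *Hsp90aa1*. With the counts of the copies added, the groups did not overlap in heart (log2 -1.62), liver (log2 -1.94) and spleen (log2 -1.81), all lower in *Scx*-/- mice.

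*Hspb1*, on chromosome 5 (135887919 to 135889563, plus strand), had no tissue without overlap and a median log2 ratio of -0.03. Its levels were even between genotypes where it was most abundant. Bladder libraries held 413, 439 and 204 CPM in wild-type mice and 189, 468 and 403 CPM in *Scx*-/- mice, and heart libraries 250, 178 and 213 CPM and 228, 313 and 189 CPM. With the copy *Hsp25-ps1* added, which held 435 counts against 2950 of *Hspb1*, the *Scx*-/- rectum libraries were higher without overlap (log2 2.09). In rectum several marker lists also did not overlap, and their part in the result was not tested. The squamous epithelium genes had medians of 115 CPM in wild-type and 9754.0 CPM in *Scx*-/- libraries, with 8 of 9 genes higher. Among the other lists, neutrophil genes were at 0 in wild-type and 73.7 to 2172.5 CPM in *Scx*-/- libraries (3 genes higher). Liver genes summed to 212 to 382 and 88.9 to 199 CPM (1 gene higher and 1 lower).

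*Hspa8* had a lower mean in *Scx*-/- mice in all 16 tissues, with a median log2 ratio of -1.08, and overlapped in every one. Without wild-type replicate 3 its ratio was below 0 in 10 tissues and above 0 in 6. Without *Scx*-/- replicate 2 it was lower without overlap in 7 tissues. With all libraries, the overlap came with a division of libraries into those rich in *Hspa8* and those almost without it. In cortex, wild-type libraries held 680, 12.4 and 1073.8 CPM and *Scx*-/- libraries 3.22, 1086.0 and 8.0 CPM. In liver, the values were 374, 8.15 and 632 CPM in wild-type mice and 2.60, 478 and 1.72 CPM in *Scx*-/- mice. In both tissues the low libraries were wild-type number 2 and *Scx*-/- numbers 1 and 3. In cartilage the log2 ratio was -0.20, and -0.64 without replicate 1 of both genotypes.

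The libraries low in *Hspa8* held counts on *Gm15459*, the copy shown above. Over 14 tissues, *Hspa8* took 71.4% of the counts of the pair in wild-type number 1, 2.28% in wild-type number 2 and 98.3% in wild-type number 3. In the *Scx*-/- libraries it took 1.41%, 97.9% and 2.23% in numbers 1, 2 and 3. The shares were alike from tissue to tissue, with medians of 69.4%, 1.82% and 99.2% in wild-type and 1.04%, 98.2% and 1.15% in *Scx*-/- numbers 1, 2 and 3. The widest range was that of *Scx*-/- number 3, whose highest library reached 44.4%. Within groups of replicates the levels of *Hspa8* and *Gm15459* had a correlation of -0.82 over 96 libraries, as a description. Wild-type mice had 2 numbers rich in *Hspa8* and *Scx*-/- mice had 1, so the lower mean in *Scx*-/- mice and this division of the libraries cannot be told apart.

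The same numbers were also told apart by *Xist*, the RNA of the inactive X chromosome, and by Y-linked genes. In the 14 tissues *Xist* exceeded the Y-linked counts in all libraries of wild-type numbers 1 and 3 and *Scx*-/- number 1, with 3704, 2055 and 2827 *Xist* counts against 14, 4 and 6 Y-linked counts. The Y-linked counts exceeded *Xist* in 13 or 14 libraries of each of the other numbers. The numbers rich in *Xist* thus had *Hspa8* shares of 71.4%, 98.3% and 1.41%, and those rich in Y-linked counts had 2.28%, 97.9% and 2.23%, so both kinds held high and low shares. In bone, *Scx*-/- number 1 had 99.4% of the pair on *Hspa8* with Y-linked counts of 56, and number 2 had 2.63% with 68 *Xist* counts, the reverse of the other tissues. In cartilage, the library labelled wild-type number 1 had 10.1% and the library labelled *Scx*-/- number 1 had 59.8%, the latter being the one with *Scx* counts. The other *Scx*-/- cartilage libraries also departed from their numbers elsewhere, number 2 with 9.09% and 116 *Xist* against 3 Y-linked counts, and number 3 with 97.7% and 20 *Xist* against 60 Y-linked counts.

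**Figure D3:**
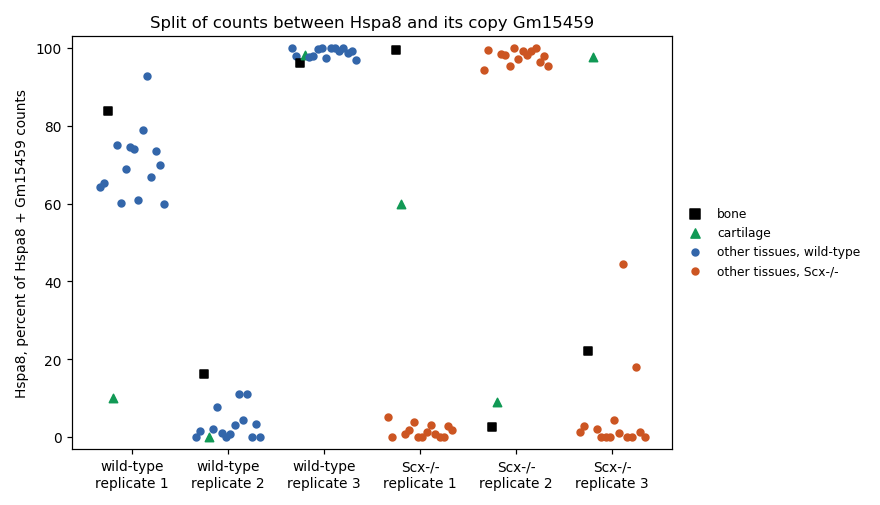
Share of *Hspa8* in the summed counts of *Hspa8* and *Gm15459*, in percent, for each of the 96 libraries by genotype and replicate number. Points of 14 tissues cluster by number, with medians near 0% or 100% except for wild-type number 1 (median 69.4%); bone (squares) and cartilage (triangles) leave their columns in *Scx*-/- and, for cartilage, in wild-type number 1.

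Adding the copies to *Hspa8* removed the division in part. The sum of the pair had a median of 742, 381 and 827 CPM in wild-type numbers 1, 2 and 3 and of 306, 572 and 248 CPM in *Scx*-/- numbers 1, 2 and 3, so libraries poor in *Hspa8* also had lower sums. *Hspa8* with its copies was lower without overlap in *Scx*-/- muscle (477 ± 109 against 205 ± 140 CPM, SD, n = 3 each), rectum (678 ± 68.8 against 371 ± 208 CPM) and spleen (838 ± 469 against 258 ± 38.6 CPM), and the median log2 ratio was -0.76. The other copies did not divide the libraries in this way. *Hsp90aa1* took 20.9% to 35.0% of its pair with *Gm12346* in every number, and *Hspb1* 79.3% to 92.1% of its pair with *Hsp25-ps1*.

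The second question was how the members differed between tissues when each tissue was averaged over the genotypes. By edgeR's quasi-likelihood F-test with Benjamini-Hochberg adjustment, 4 of the 7 measured members differed between tissues, in a setting where 57.4% of 22493 genes did. They were *Hspb1* (adjusted p = 2.45e-32), *Hsph1* (adjusted p = 3.74e-14), *Hsp90aa1* (adjusted p = 2.07e-04) and *Cirbp* (adjusted p = 2.65e-04). *Cirbp* was called in *Scx*-/- libraries alone (edgeR, adjusted p = 0.00181) but not in wild-type libraries alone (edgeR, adjusted p = 0.326). Without replicate number 2 edgeR called neither *Cirbp* (adjusted p = 0.0610) nor *Hsp90aa1* (adjusted p = 0.0661), whereas *Hspb1* and *Hsph1* passed in every alternative run. The test did not call *Rbm3* (adjusted p = 0.221), *Dnajb1* (adjusted p = 0.276) or *Hspa8* (adjusted p = 1.00). For *Hspa8* the spread between numbers enters the error, and a fit with genotype and replicate number as a block, chosen after these values were seen, gave an adjusted p of 0.0341 with edgeR. Without replicate number 2 of both genotypes its adjusted p was 1.92e-18 with edgeR, and with the copies added it was 0.197. *Rbm3* and *Dnajb1* passed on library totals without further scaling (edgeR, adjusted p = 0.0455 and 0.0135), and *Rbm3* also without replicate number 1 (adjusted p = 0.0378).

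When one tissue was set against the mean of the other 15, 13 of 112 pairs of measured member and tissue were called higher and 2 lower at an adjusted p under 0.05 with edgeR. Over all genes 11.1% of pairs were called higher and 0.749% lower, so the members' shares are near this background. In simulated counts with no difference, the share of well-covered genes called in a tissue had a median of 0.0233% and a highest value of 2.44%, in cortex.

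*Hspb1* accounted for 6 of the 13 higher calls, in bladder, heart, muscle, cartilage, vascular and stomach. The cartilage libraries held 106464.4 to 133824.2 CPM of skeletal muscle genes against 1862.2 to 13471.5 CPM of cartilage genes, and the part of that muscle RNA in the call was not tested. In bladder the 6 libraries had a mean of 353 ± 123 CPM (SD), 3.36 log2 units above the other tissues (edgeR, adjusted p = 3.65e-15). Heart had 228 ± 48.9 CPM and muscle 154 ± 66.5 CPM, with log2 differences of 2.92 and 3.02. The mean of bladder lay above that of heart by slightly more than the SD of either, but their libraries overlapped (189 to 468 and 178 to 313 CPM). From heart through vascular (176 ± 62.3 CPM) and muscle to cartilage (148 ± 34.8 CPM) no tissue differed from its neighbour beyond the spread. At the other end, liver had 1.48 ± 1.53 CPM and intestine 6.08 ± 10 CPM, on 5 and 8 counts in their 6 libraries.

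*Hsph1* was highest in the brain. Hippocampus had 379 ± 194 CPM and cortex 352 ± 69.2 CPM, which did not differ beyond their spread, and their log2 differences from the other tissues were 2.42 and 2.75 (edgeR, adjusted p = 1.22e-08 and 3.78e-12). Kidney followed at 149 ± 72.1 CPM with a log2 difference of 1.24 (edgeR, adjusted p = 0.0268), a call that held in 7 of 15 alternatives. The lowest were liver (23.0 ± 22.5 CPM) and the adipose-labelled libraries (10.4 ± 17.6 CPM), the latter called lower with edgeR (adjusted p = 0.0293).

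*Hsp90aa1* was higher in cortex (69.4 ± 18.2 CPM, log2 difference 2.49, edgeR adjusted p = 1.04e-04), spleen (86.0 ± 82.1 CPM, adjusted p = 0.00674) and stomach (38.8 ± 18.4 CPM, adjusted p = 0.0493). The cortex call held in all 15 alternatives and the stomach call in 5. With its copies added, *Hsp90aa1* was called higher in cortex and hippocampus and lower in muscle, and neither spleen nor stomach was called. *Cirbp* was higher in cortex (140 ± 76.6 CPM, log2 difference 1.31, edgeR adjusted p = 0.0180) and lower in intestine (log2 difference -2.79, edgeR adjusted p = 0.0101). The cortex call held in 12 of 15 alternatives. The intestine call, on 9 counts in all, held in 8 of 15. Rectum had the highest mean of *Cirbp*, 224 ± 133 CPM, but its libraries ranged from 13.8 to 373 CPM and it was not called (edgeR, adjusted p = 0.0506). It was called higher in 8 of 15 alternatives. No neighbours in the order of tissues differed beyond their spread for *Cirbp* or *Hsp90aa1*.

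**Figure D4:**
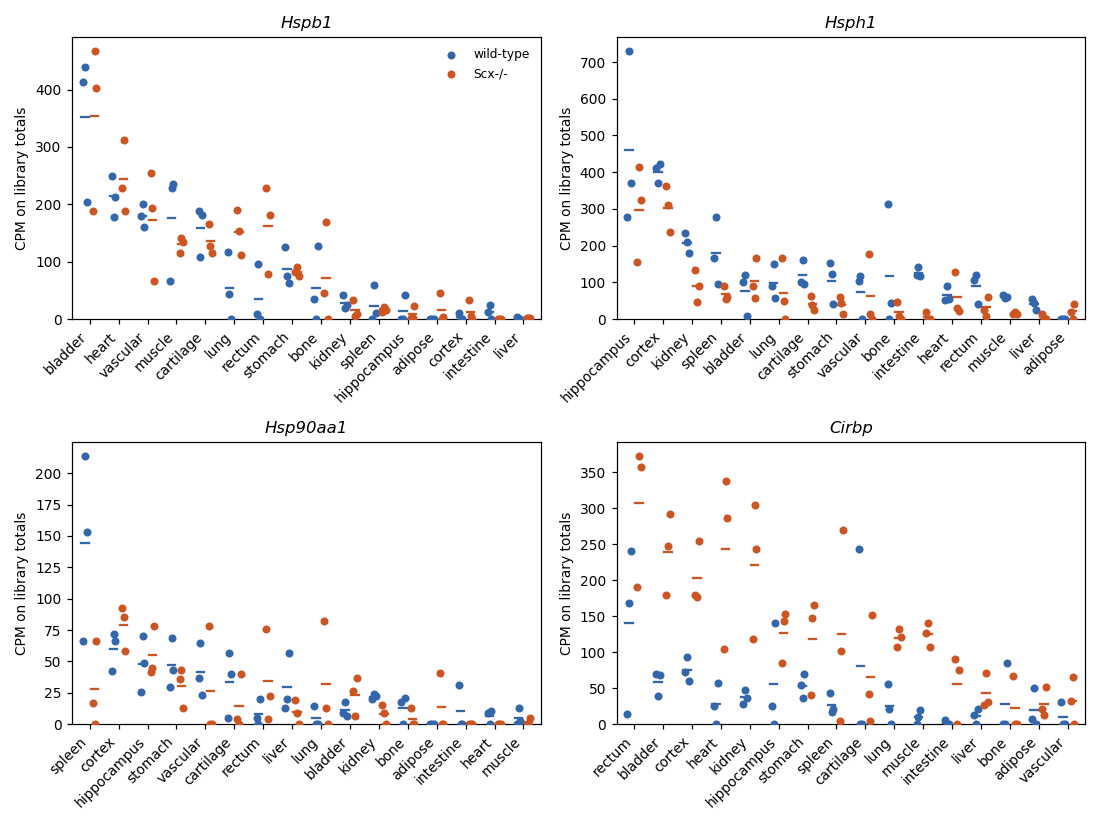
CPM in every library for the 4 members that differed between tissues, with tissues ordered by their mean, wild-type in blue, *Scx*-/- in orange and short lines for the mean of 3 libraries. *Hspb1* is led by bladder (353 CPM), *Hsph1* by hippocampus (379 CPM) and cortex (352 CPM), and the order of tissues for *Cirbp* is flatter, with rectum (224 CPM) at its head.

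The other genes of the chaperone and cold shock pathways were tested between genotypes within each tissue. A list of 59 such genes held 57 with a count, in 8 groups. They were heat shock factors and their regulators such as *Hsf1*, small heat shock proteins such as *Cryab*, J-domain co-chaperones such as *Dnaja1*, other HSP70 and HSP110 proteins such as *Hspa4*, HSP90 and its co-chaperones such as *Hsp90ab1*, HSP70 exchange factors and partners such as *Bag3*, chaperonins such as *Cct2*, and cold shock domain proteins such as *Ybx3*. None of the 863 gene and tissue pairs passed an adjusted p under 0.05 with edgeR, in either direction, nor with DESeq2. Over all genes 0.0591% of pairs were called higher and 0.0323% lower. At an unadjusted p under 0.05 there were 39 pairs with edgeR (4.52%) and 42 with DESeq2 (4.87%), where all genes gave 4.01% with edgeR.

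By group, the number of pairs under an unadjusted p of 0.05 was 1 of 54 for heat shock factors, 2 of 80 for small heat shock proteins, 4 of 127 for J-domain co-chaperones and 5 of 92 for other HSP70 and HSP110 proteins. It was 8 for HSP90 and its co-chaperones, 5 of 128 for HSP70 exchange factors and partners, 8 of 160 for chaperonins and 6 of 78 for cold shock domain proteins. No group stood out by its median log2 ratio, which lay between -0.18 and 0.09, with 0.03 over all genes tested. By the criterion of non-overlap on library totals, 37 of 796 pairs with at least 10 counts were higher (4.65%) and 72 lower (9.05%), beside 5.38% and 5.08% over all genes. The lower pairs were most frequent in intestine (9 of 43 genes, where 12.8% of all genes were lower) and lung (10 of 51 genes, where 3.53% of all genes were lower).

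Immediate early genes, which respond to stress and handling within minutes, were summed over the 9 measured genes of a list of 10. Their summed level overlapped between the genotypes in 15 of 16 tissues. Overlap of 3 libraries each does not show that the levels were equal. Among these tissues, single genes were higher without overlap in lung (2), cortex, heart, muscle and vascular (1 each). Others were lower in kidney (2), bone, intestine, muscle and vascular (1 each). Their part in the member differences was not tested. In muscle the sum was 209 to 296 CPM in wild-type and 219 to 332 CPM in *Scx*-/- libraries. In rectum the sum was higher without overlap in *Scx*-/- mice, with medians of 522 and 1175.0 CPM (2 genes higher).

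Marker lists also differed without overlap between the genotypes in tissues named above, and their part in the member differences was not tested. In heart the sum of 7 cardiac genes was 25791.5 to 36585.0 CPM in wild-type and 40527.7 to 49219.9 CPM in *Scx*-/- libraries (3 genes higher). In lung the sum of 4 lung genes was 61735.0 to 75461.2 and 83950.6 to 99123.0 CPM (1 gene higher and 1 lower). These were the labelled tissues' own markers, as were those of kidney, where 7 genes summed to 24036.4 to 34013.2 CPM in wild-type and 18351.2 to 20804.7 CPM in *Scx*-/- libraries (1 gene higher and 2 lower). In bladder 4 of 7 bone genes had a count, *Dmp1*, *Sp7* and *Phex* being at 0. The bone list summed there to 9319.0 to 14889.0 and 5683.6 to 7094.4 CPM (1 gene lower). The 5 bladder markers summed to 4543.8 to 7654.6 and 7780.2 to 9357.7 CPM (1 gene higher). In liver the 7 adipocyte genes summed to 540 to 2246.5 and 122 to 284 CPM (2 genes lower), the 9 acinar genes to 260 to 440 and 481 to 755 CPM (6 genes higher), and the 7 stomach genes to 349 to 742 and 212 to 327 CPM (3 genes lower). In spleen the 7 liver genes summed to 221 to 386 and 407 to 958 CPM (3 genes higher), and in intestine the 7 neuron genes to 0 to 110 and 167 to 237 CPM (1 gene higher). In cartilage all 9 acinar genes were higher in *Scx*-/- libraries, with sums of 424 to 992 and 2366.6 to 2956.3 CPM. In muscle the skeletal muscle genes overlapped, whereas the 7 cardiac genes summed to 205 to 1085.2 CPM in wild-type and 32.3 to 92.6 CPM in *Scx*-/- libraries (1 gene lower) and the 7 bone genes to 4015.9 to 6939.2 and 1315.9 to 2701.9 CPM (1 gene lower). In cortex the neuron genes overlapped, whereas 6 erythroid genes summed to 292 to 1000.5 and 141 to 219 CPM (0 genes lower). Further lists without overlap, at low sums or with few genes apart, were brown fat in cortex, bone, cartilage and kidney in heart, spleen in kidney, adipocyte, neutrophil and vessel wall in lung, cartilage, neuron and liver in bladder, neutrophil in intestine, rectum and intestine in muscle, and intestine, rectum, lung, neuron and squamous epithelium in liver.

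Between libraries of one group, the members varied with little relation to one another. The correlation of their deviations from the group mean over 96 libraries had a median of 0.09 over 21 pairs and ranged from -0.25 (*Hspa8* and *Hsph1*) to 0.44 (*Hsph1* and *Hsp90aa1*). The next highest values were 0.39 for *Hsph1* and *Hspb1*, 0.30 for *Dnajb1* and *Hsp90aa1*, 0.29 for *Hsp90aa1* and *Hspb1* and 0.28 for *Cirbp* and *Hspb1*, whereas *Hsph1* and *Dnajb1* had 0.15. The cold-induced pair *Cirbp* and *Rbm3* had -0.01. Both genes of a pair are read from the same library and share its depth, and the values are descriptions.

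Among 1002 genes counted in at least 90 libraries, those most like each member in this measure differed from member to member. For *Cirbp* they were *Rnase4* (0.46), *H3f3b* (0.45) and *Col4a1* (0.41), and for *Rbm3* they were *Mt2* (0.42), *Msrb1* (0.40) and *Ndufs4* (0.39). For *Hsph1* they were *Mlf2* (0.44), *Atxn2l* (0.43) and *Mif* (0.42), and for *Hsp90aa1* they were *Tuba1b* (0.41), *Degs1* (0.39) and *Copz1* (0.37). No gene was shared among these lists of 3. *Hspb1* had the highest values, with *Ech1* (0.57), *Snx3* (0.53) and *Nedd8* (0.47), *Dnajb1* was nearest to *Chchd10* (0.45), *Copb2* (0.45) and *Rpl10a-ps1* (0.44), and *Hspa8* to *Rplp1* (0.47), *Hbb-b1* (0.40) and *Pcbp2* (0.40).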

How the data were processed

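The deposited table holds the authors' raw read counts per gene symbol for 96 libraries. Per the labels and the submitters' processing notes, the authors aligned reads to mm10 with Bowtie2, which does not split reads over introns, and counted them with HTSeq. The sources used here give no tool versions. Total RNA was reverse transcribed with a barcode per sample and pooled, and libraries were made with Nextera XT. All 96 sample columns were used, and 0 columns of other samples were present.

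Groups came from the tissue and genotype labels (3 libraries each). CPM was computed on library totals. Members were compared between genotypes by mean CPM and by whether the libraries overlapped, with at least 10 counts in 6 libraries. Tissues were compared, averaged over genotypes, with edgeR 4.0.16 in R 4.3.3 (quasi-likelihood test, TMM factors, robust fit), and pathway genes between genotypes in each tissue, with Benjamini-Hochberg adjustment over all genes tested and a threshold of 0.05. DESeq2 1.42.0 was an alternative. Further values were computed with Python 3.11.15, numpy 2.4.6, pandas 2.3.3, scipy 1.17.1 and matplotlib 3.10.9. Likeness is Pearson's correlation of deviations from the group mean on log2(CPM + 10), over genes with a count in at least 90 libraries. The edgeR tests were run on simulated data, the genotype test in muscle, bladder and bone only. DESeq2 was not.

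The members and the gene lists were chosen with earlier results of these data known. Genes named were all members, pathway genes with an adjusted p under 0.05, of which there were 0, and the 3 genes most like each member. Other pathway genes with values were named after their values were seen. Alternatives were TMM or RLE scaling, no further scaling, other filters, a pseudocount of 1 CPM, leaving out each replicate, either genotype, the adipose libraries or libraries under 100000 counts, and a replicate block. Setting counts of 0 to 3 counts, adding copies, leaving out bone and cartilage or cartilage replicate 1, and a block by genotype and number were chosen after seeing the data. Intervals were not used, and the limit of 3 counts for a count of 0 covers counting error only.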

Additional observations from a re-analysis of the deposited data

Results flagged for a closer look

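The pseudogene *Gm15459*, which is no member, held 6842 counts, a signal outside the genes compared, beside 11591 counts of its parent gene *Hspa8*. The pseudogene *Gm12346* held 2732 counts, more than its parent gene *Hsp90aa1*, and *Hsp25-ps1*, the copy of *Hspb1*, held 435 counts. *Scx* had 9 counts in the library labelled *Scx*-/- cartilage replicate 1, above the 3 counts that a count of 0 allows, whereas the other 47 *Scx*-/- libraries held none.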

How the results depend on the processing

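Counts of members called in 1 tissue were the least stable. Higher calls numbered 8 with *Scx*-/- libraries only and 10 to 20 when 1 replicate number was left out, the highest without number 1. Lower calls numbered 1 with RLE factors, with either genotype alone and without libraries under 100000 counts, 10 with DESeq2, and 0 to 1 when a number was left out. Members not overlapping between genotypes numbered 11 to 14 higher and 12 to 17 lower when 1 library of a genotype was left out in every tissue, since smaller groups overlap less readily. Of the pathway pairs, 1 was called lower on library totals (*Trap1* in heart, log2 -3.22). With a replicate left out, 0 to 1 were called higher (*Ybx3* in liver without wild-type number 2) and 0 to 2 lower (*Fkbp4* in spleen and *Hspd1* in vascular without *Scx*-/- number 1). The median likeness of members was 0.16 with a pseudocount of 1 CPM, 0.15 without libraries under 100000 counts and 0.07 to 0.16 with a number left out. No log2 ratio of a pair without overlap changed sign in the alternatives run, but *Dnajb1* in the adipose-labelled libraries, which has no ratio, was lower with its zeros at 3 counts. Ratios of overlapping pairs changed sign with TMM or RLE factors for *Cirbp* in bone, *Dnajb1* in intestine, rectum and vascular, *Hspb1* in bladder and spleen, and *Hsph1* and *Rbm3* in heart. TMM factors moved the median ratio of all genes by -0.46 (intestine) to 0.57 (adipose), and by over 0.1 in 10 tissues. The causes were not tested.

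With the replicate number as a block, 4 members differed across tissues, 15 were higher and 2 lower in 1 tissue, and 0 pathway pairs were called in either direction. The numbers did not pair the samples, since same-numbered deviations correlated at -0.36 to 0.17 (median -0.01) over 48 pairs, and 10 of 48 correlated best with their own number. *Rbm3* and *Hsp90aa1* were at 0 in 28 and 30 of 96 libraries, and *Hspa1a* and *Hspa1b* in all.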
